A study of Homo sapiens with 10 samples.

Results

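The regions described here lie on the distal long arm of chromosome 10 in hTERT-RPE1. These are human cells of the retinal pigment epithelium made immortal by telomerase, and the line is known to carry an additional copy of this stretch. They were profiled by CUT&Tag, in which an antibody brings a transposase to its target so that nearby DNA is cut and tagged. Peaks of both lists of a target were merged, each merged interval with a peak from each of them was called a region, and a region counted as a member when it began at position 61000000 of chromosome 10 or beyond (hg38). There were 4615 such regions of 135463 on chromosomes 1 to 22 and X. H3K4me1 gave 3496 of its 104482 regions, and RNA polymerase II phosphorylated on serine 5 (Pol II below) gave 1119 of its 30981.

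All cells carried the label wild type, with no treatment named, and the line is the sole cell source. H3K4me1 was measured in 4 libraries and Pol II in 6. The submitters had merged them into 2 peak lists per target, of 2 libraries each for H3K4me1 and 3 each for Pol II, called list 1 and list 2 below after their R numbers. The sources used here do not say what separates the R numbers, so agreement between lists measures only their spread, which may be technical. The segment ran over 72.8 Mb to the last annotated gene or peak and held 486 coding genes. It was set beside the lower 61 Mb of chromosome 10, with 248 coding genes, and beside the other 21 autosomes. Gene number cannot be left aside in the first of these contrasts: the segment had 6.68 coding genes per Mb and the other autosomes 6.71, but the lower part of chromosome 10 had 4.07.

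H3K4me1 is a histone mark laid down at enhancers and on the flanks of active promoters. Serine 5 of the polymerase tail is phosphorylated as a polymerase leaves the promoter, so this form is richest near start sites and is also found at active enhancers. A gained chromosome segment supplies more DNA template to the transposase, whatever the state of each copy. In peak lists, extra template and more target per copy cannot be told apart, and the lists do not separate the copies.

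The segment holds promoters of very different kinds, and 5 are shown for the contrast between a pair of broadly active genes and the interferon-induced IFIT cluster. DDX50 encodes a nucleolar RNA helicase and OGA the enzyme that removes O-GlcNAc from proteins. IFIT1, IFIT3 and IFIT5 encode antiviral RNA-binding proteins. Each line gives the 250 bases before the RefSeq start (GRCh38.p14), 5′ to 3′ on the gene's strand. Capitals mark matches on either strand to the GC box (GGGCGG), the CCAAT box (CCAAT), the TATA box (TATAAA), an ETS motif (CCGGAA) or the core of the interferon-stimulated response element (ISRE). The AP-1 motif (TGANTCA) and the E-box (CACGTG) were searched too and have no match in these lines.
DDX50: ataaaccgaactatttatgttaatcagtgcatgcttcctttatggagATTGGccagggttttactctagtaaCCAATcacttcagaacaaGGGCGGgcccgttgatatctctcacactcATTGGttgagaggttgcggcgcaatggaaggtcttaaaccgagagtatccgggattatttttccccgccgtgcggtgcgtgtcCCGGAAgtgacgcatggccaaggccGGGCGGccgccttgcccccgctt
OGA: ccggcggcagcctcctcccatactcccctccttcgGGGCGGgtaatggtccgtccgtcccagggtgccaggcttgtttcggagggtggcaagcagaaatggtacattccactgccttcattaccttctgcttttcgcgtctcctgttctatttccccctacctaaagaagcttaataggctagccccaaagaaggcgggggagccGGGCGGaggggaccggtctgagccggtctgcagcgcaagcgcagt
IFIT1: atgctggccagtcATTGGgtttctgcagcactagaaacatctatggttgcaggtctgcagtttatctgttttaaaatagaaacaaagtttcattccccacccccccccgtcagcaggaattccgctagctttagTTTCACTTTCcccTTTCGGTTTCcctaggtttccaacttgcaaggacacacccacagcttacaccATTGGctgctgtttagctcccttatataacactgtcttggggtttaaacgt
IFIT3: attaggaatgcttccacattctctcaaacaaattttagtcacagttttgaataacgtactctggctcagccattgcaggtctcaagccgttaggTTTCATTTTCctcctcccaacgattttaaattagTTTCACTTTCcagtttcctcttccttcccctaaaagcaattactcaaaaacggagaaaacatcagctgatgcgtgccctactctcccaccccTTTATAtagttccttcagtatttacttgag
IFIT5: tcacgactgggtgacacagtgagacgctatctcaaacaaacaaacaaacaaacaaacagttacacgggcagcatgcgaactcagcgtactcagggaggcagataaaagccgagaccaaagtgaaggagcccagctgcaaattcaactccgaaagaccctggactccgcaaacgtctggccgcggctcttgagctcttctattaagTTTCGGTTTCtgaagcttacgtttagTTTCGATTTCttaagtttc

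The windows lie at chr10:68901065-68901314 on the plus strand for DDX50 and at chr10:101818445-101818694 on the minus strand for OGA. The IFIT windows are all on the plus strand, at chr10:89392373-89392622 for IFIT1, chr10:89327747-89327996 for IFIT3 and chr10:89414318-89414567 for IFIT5. DDX50 has 2 GC boxes, 3 CCAAT boxes and 1 ETS match within 52.8% G and C. OGA has 2 GC boxes within 60.8% G and C. The IFIT windows have no GC box, and each holds 2 ISRE cores. In IFIT1 the cores begin 116 and 103 bases before the start, in IFIT3 156 and 122, and in IFIT5 45 and 19. A TATA box was found in IFIT3 only among these 5 windows, 30 bases before the start. All 5 windows were overlapped by peaks of both lists of both targets.

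The gained segment carried more regions of both targets per Mb than the rest of chromosome 10 or the other autosomes as a whole. H3K4me1 regions stood at 48.0 per Mb on the segment, 31.5 on the lower part of chromosome 10 and 35.3 on the other autosomes. The segment ranked first of 23 units, the 21 other autosomes and the 2 parts of chromosome 10, but chromosome 17 was level with it at 47.97 per Mb. Pol II regions stood at 15.4 per Mb on the segment, 8.84 on lower chromosome 10 and 10.5 on the other autosomes. Here the segment came after chromosome 19, with 19.7, and chromosome 17. The ratio to the other autosomes was 1.36 for H3K4me1 and 1.47 for Pol II, and that to lower chromosome 10 was 1.53 and 1.74.

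Each list showed the excess by itself. H3K4me1 peaks per Mb were 56.6 on the segment against 41.7 on the other autosomes in list 1, and 57.2 against 42.0 in list 2. Pol II peaks per Mb were 25.1 against 16.7 in list 1 and 23.8 against 15.9 in list 2. The differences between segment and other autosomes were thus far larger than those between lists. The spread between lists does not measure how chromosomes differ. Single other autosomes ran from 22.7 to 47.97 H3K4me1 regions per Mb and from 5.87 to 19.7 Pol II regions per Mb. An exact two-sided sign-flip permutation test over 2 lists gives p = 0.5 at the smallest. Each of the 17 comparisons made reached that value, and in 16 of them both lists alone lay on the same side as the regions. Lists agreed as well on the segment as elsewhere for H3K4me1, with 86.3% of list 1 peaks recurring in list 2 against 86.2% on the other autosomes. For Pol II the shares were 64.8% and 66.1%.

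**Figure D1:**
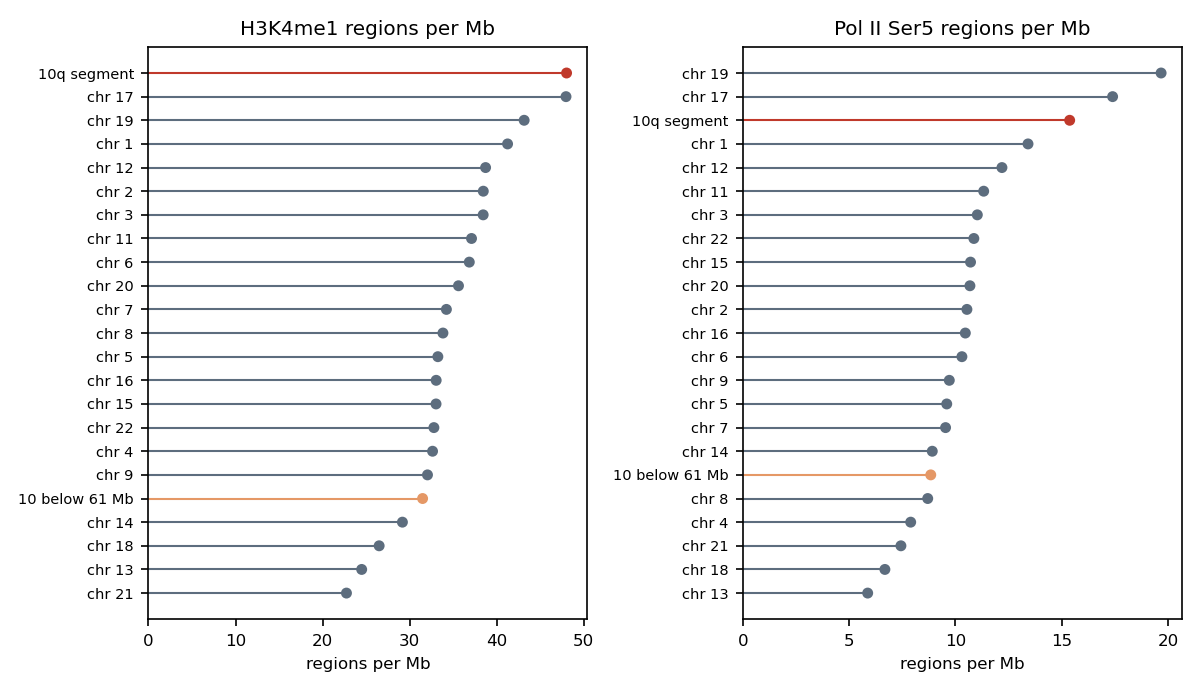
Regions per Mb for H3K4me1 (left) and Pol II (right) in 23 units: the gained 10q segment (red), chromosome 10 below 61 Mb (orange) and the other autosomes (grey). The segment lies at 48.0 H3K4me1 and 15.4 Pol II regions per Mb, and the lower part of the same chromosome at 31.5 and 8.84.

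Counting per coding gene changed the contrast within chromosome 10. The segment had 7.19 H3K4me1 regions per coding gene, lower chromosome 10 had 7.75 and the other autosomes 5.25. The segment was therefore 1.37 times the other autosomes but 0.929 times the gene-poor lower part, and 5 units ranked above it. Pol II regions per coding gene were 2.30 on the segment, 2.17 on lower chromosome 10 and 1.56 on the other autosomes. The segment ranked first, by a ratio of 1.47 to the other autosomes and of only 1.06 to lower chromosome 10. With all annotated genes in the denominator the H3K4me1 ratio to lower chromosome 10 became 1.38, so its direction depends on which genes are counted.

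Gene number was also taken into account along the chromosome. A straight line of regions on coding genes was fitted over the 1-Mb bins of the other autosomes, and its prediction was summed over the 73 bins of the segment. It gave 2561 H3K4me1 regions, and 3496 were observed, a ratio of 1.37. It gave 761 Pol II regions, and 1119 were observed, a ratio of 1.47. Both ratios were the highest of the 23 units. The other autosomes ran from 0.686 to 1.17 for H3K4me1 and from 0.769 to 1.16 for Pol II, and lower chromosome 10 was at 1.01 and 1.05.

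Peaks on the segment were stacked higher over a background that was higher too. The authors' fold and −log10 p of every autosomal peak were matched by a whole-number pileup at the summit and a local background, the mean that the Poisson p-value assumes there. Both quantities were computed here from these values. The median H3K4me1 pileup in regions of the segment was 56 in list 1 and 46 in list 2, against 41 and 35 on the other autosomes. Lower chromosome 10 was at 41 and 36. The segment was the highest of the 23 units in both lists, and the highest other autosomes were at 48 and 38. The median background was 9.21 and 7.53 on the segment, against 6.41 and 5.32 on the other autosomes and 6.01 and 4.97 on lower chromosome 10. The ratios of segment to other autosomes were 1.37 and 1.31 for pileup and 1.44 and 1.41 for background.

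Pol II showed the same direction with smaller steps. Its median pileup was 19 and 24 on the segment against 16 and 21 on the other autosomes, and 16 and 20 on lower chromosome 10. Its median background was 2.17 and 3.80 on the segment against 1.64 and 2.85 on the other autosomes, a ratio of 1.33 in each list. The segment ranked second to the gene-dense chromosome 19 in both quantities, with a tie in pileup in list 2. Regions whose background sat at the lowest value of their list were scarcer on the segment. They made up 11.4% and 9.30% of H3K4me1 regions there against 18.1% and 16.1% on the other autosomes. For Pol II they made up 2.06% and 3.93% against 4.92% and 9.45%.

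**Figure D2:**
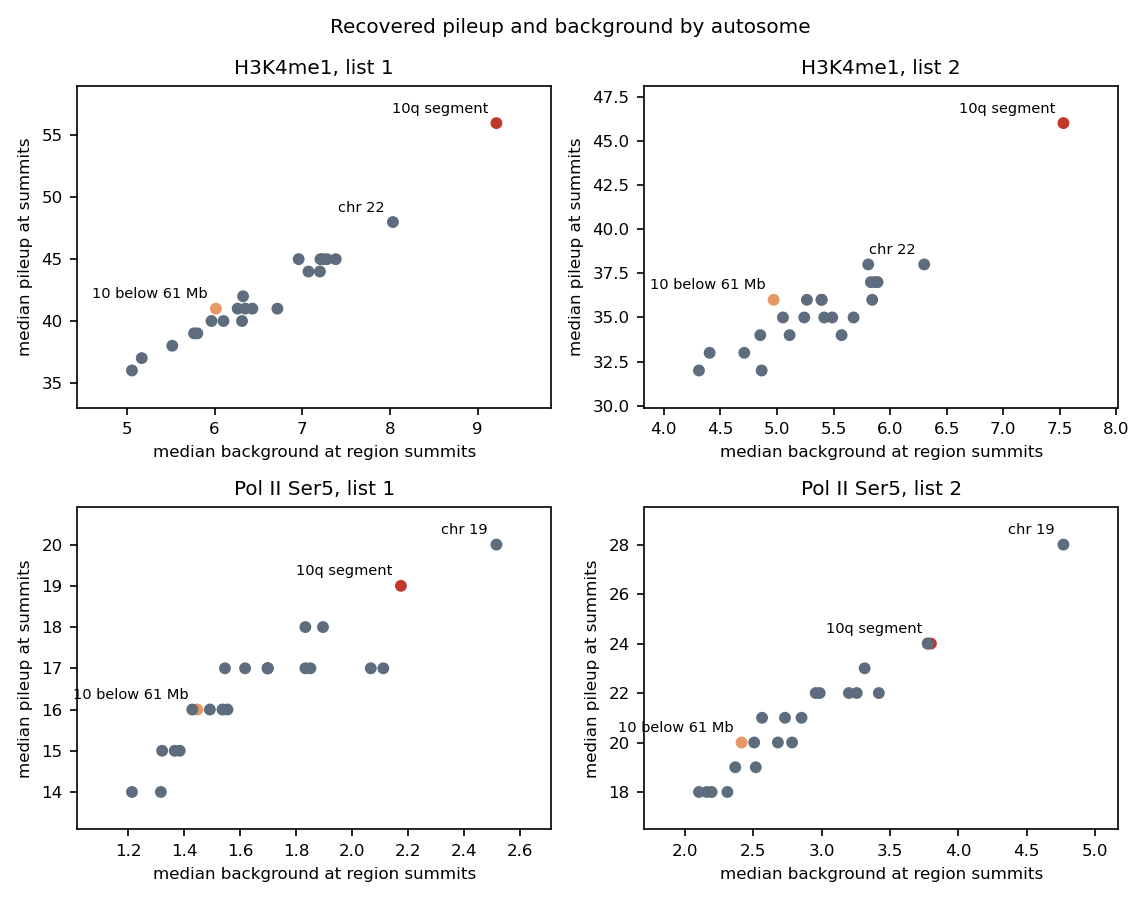
Median summit pileup (y axis) against median local background (x axis), both recovered from the deposited values, in the regions of each of 23 units, 1 panel per list. The red point is the 10q segment and the orange one chromosome 10 below 61 Mb, and for H3K4me1 the segment lies apart from every autosome in both lists, at a pileup of 56 and 46.

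The deposited fold and the deposited significance moved in opposite directions. The median fold of H3K4me1 peaks in regions was 5.05 and 5.18 on the segment against 5.31 and 5.38 on the other autosomes, and lay at or near the bottom of the 23 units. The median −log10 q was 20.1 and 16.7 on the segment against 16.6 and 14.5, the highest of the 23 units in both lists. The median fold of Pol II was 5.95 and 4.98 against 6.03 and 5.22, and its median −log10 q was 8.96 and 8.83 against 8.17 and 8.22. A fold is a ratio to the local background, so a rise of pileup and background together leaves it nearly as it was, while the q-value gains from the larger counts.

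Regions of the same fold could therefore be set side by side. At a given fold the −log10 p fixes the recovered pileup. The comparison thus restates the higher pileup in the deposited values and is not a separate result. Among H3K4me1 regions with a fold from 6 to 8 in list 1, the median −log10 q was 31.9 on the segment, 22.9 on lower chromosome 10 and 24.0 on the other autosomes. In list 2 the values were 27.6, 19.3 and 21.1. Among Pol II regions in that range they were 10.9, 9.14 and 9.41 in list 1 and 14.2, 12.1 and 11.8 in list 2. The segment was above both other groups in each of these 4 comparisons.

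**Figure D3:**
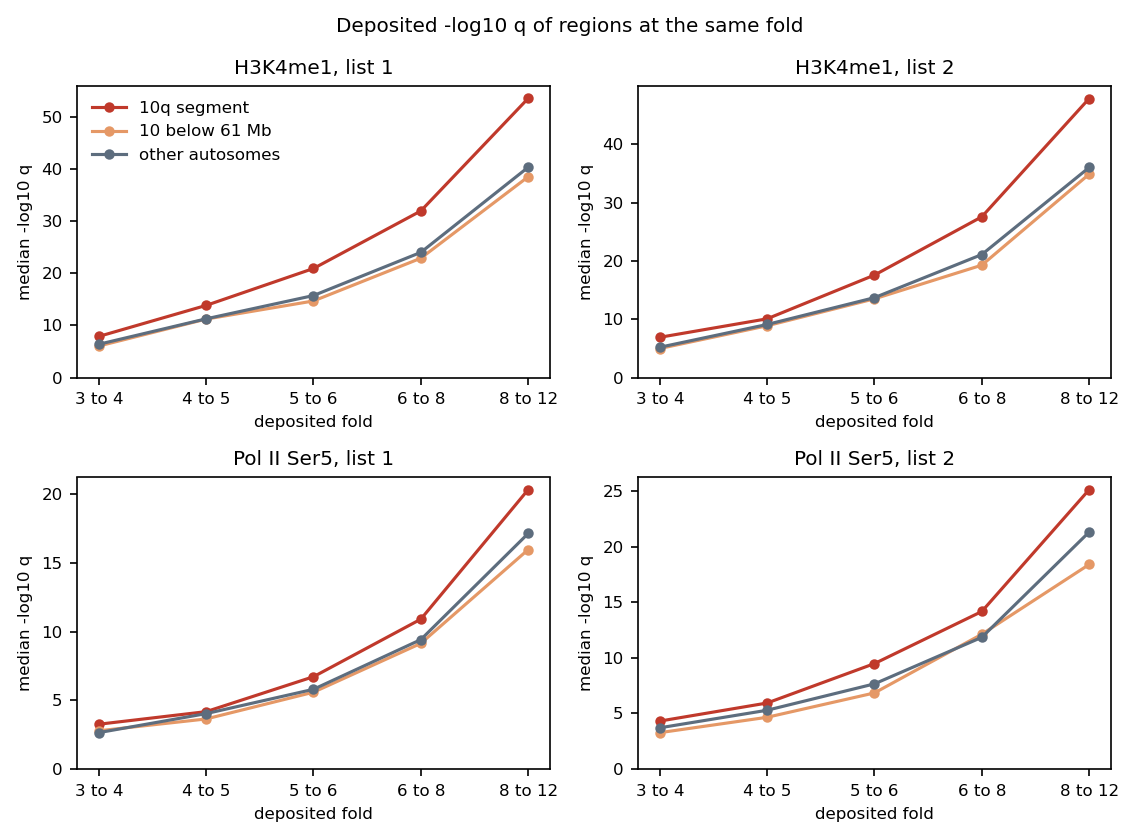
Median deposited −log10 q (y axis) of regions in 5 ranges of deposited fold (x axis), 1 panel per list, for the 10q segment (red), chromosome 10 below 61 Mb (orange) and the other autosomes (grey). At a fold of 6 to 8 the H3K4me1 medians of the segment are 31.9 in list 1 and 27.6 in list 2, above those of both other groups. At a given fold the significance follows the recovered pileup.

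The higher background ran along nearly the whole segment. In windows of 5 Mb counted from its start, the median H3K4me1 background was above that of the other autosomes in 15 of 15 windows in list 1 and in 14 of 15 in list 2. On lower chromosome 10 this was so in 5 and 4 of 13 windows. For Pol II it was so in 12 and 14 of 15 windows of the segment and in 2 and 3 of 13 windows below it. The last window before the boundary had an H3K4me1 background of 6.26 and 5.25, the first beyond it 6.67 and 6.21, and the second 9.67 and 8.46. The step at the boundary was thus small for H3K4me1. For Pol II the last window before it had 1.02 and 1.87, and the first beyond it 2.07 and 3.64. That first window was not above all lower ones. From 1 to 6 Mb the Pol II background was 2.36 and 3.79, and from 16 to 21 Mb it was 2.29 and 3.76. The remaining lower windows were below the first one of the segment. Within the segment it fell to 1.24 and 1.99 from 111 to 116 Mb.

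The H3K4me1 regions nearest to the boundary were weak ones. The last H3K4me1 region before it, at chr10:60980550-60981403, had a pileup of 13 and 16, and the first beyond it, at chr10:61000754-61002015, had 20 and 16. The last Pol II region before it, at chr10:60964298-60964645, had a pileup of 8 and 12, and the first beyond it, at chr10:61140877-61141222, had 14 and 28. The peak lists do not give the position at which the gain begins.

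**Figure D4:**
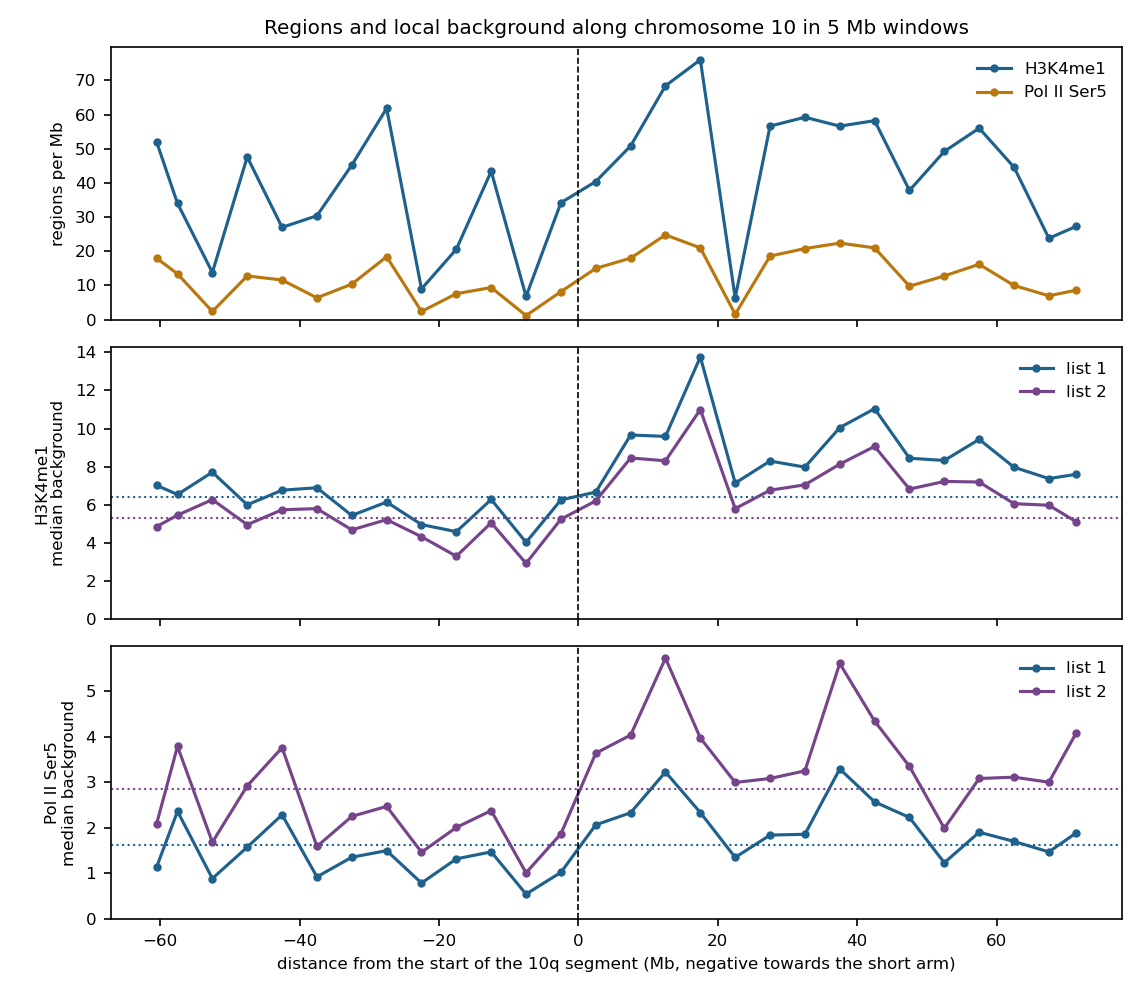
Regions per Mb (top) and the median recovered background of H3K4me1 (middle) and Pol II (bottom) in 5-Mb windows of chromosome 10, by distance from the start of the segment in Mb (x axis, dashed line at 0). Dotted lines mark the medians of the other autosomes for each list, and the H3K4me1 background of list 1 is above its line in 15 of 15 windows of the segment and in 5 of 13 below it.

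Density still varied widely along the segment. Its 1-Mb bins held from 0 to 121 H3K4me1 regions with a median of 49, and from 0 to 48 Pol II regions with a median of 13. The fullest bin for H3K4me1, from 77 to 78 Mb, lies partly over KCNMA1, the gene of a calcium-activated potassium channel, and holds the lower ends of only 2 coding gene models, DLG5 and POLR3A. The fullest bin for Pol II, from 102 to 103 Mb, held the lower ends of 23 coding genes, among them NOLC1, NFKB2, SUFU and GBF1, and 101 H3K4me1 regions. The Pol II bins from 73 to 74 Mb and from 97 to 98 Mb followed with 43 regions each. They hold VCL, P4HA1, ANXA7 and PLAU, and PGAM1, EXOSC1, MMS19 and RRP12. Of the 73 bins, 8 had no Pol II region and 4 no H3K4me1 region.

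The longest stretch without an H3K4me1 region measured 1848 kb, where the median gap on the segment was 7.44 kb. It lies at chr10:128174137-130022219 and holds MGMT, which encodes a DNA repair methyltransferase, and EBF3, a transcription factor gene. In it list 1 had 0 H3K4me1 peaks and list 2 had 1. The longest stretch without a Pol II region measured 3629 kb at chr10:80510029-84139407, with TSPAN14, SH2D4B and NRG3, the last a neuregulin gene. It held 1 Pol II peak in list 1 and 3 in list 2. A gene without a region here is one without a called peak in both lists, and the lists do not say how many reads it had.

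H3K4me1 regions of the segment were from 272 to 3828 bp wide, with a median of 1012 bp against 972 bp on the other autosomes, the largest median of the 23 units. Pol II regions had a median of 634 bp against 623 bp. Together the H3K4me1 regions covered 54.0 bp of every kb of the segment, 33.9 on lower chromosome 10 and 37.7 on the other autosomes. Pol II regions covered 6.19 bp per kb of lower chromosome 10 and 7.35 of the other autosomes, against 10.98 of the segment.

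Most members lay away from gene ends. No gene end lay within 2 kb of 2656 of 3496 H3K4me1 regions, 76.0% (95% Wilson interval 74.5 to 77.4), where 73.6% of those of all autosomes were so placed. For Pol II it was 752 of 1119, 67.2% (64.4 to 69.9), against 63.1%. Lower chromosome 10 had higher shares, 76.9% for H3K4me1 and 71.2% for Pol II. The segment ranked 9 of 23 units from the highest for either target. Of the distal H3K4me1 regions of the segment, 63.8% were inside a coding gene, against 56.8% on the other autosomes. Of the distal Pol II regions 73.5% were, against 64.8%. These intervals cover the counting of regions alone, and neighbouring regions are not independent.

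The 2 targets met at similar rates to elsewhere. An H3K4me1 region overlapped 998 of 1119 Pol II regions of the segment, 89.2% (95% Wilson interval 87.2 to 90.9), beside 87.8% over all autosomes. A Pol II region overlapped 985 of 3496 H3K4me1 regions, 28.2% (26.7 to 29.7), beside 26.0%. The segment's Pol II share on H3K4me1 was 1.46 points above that of the other autosomes, but the difference was -0.266 points in list 2 alone and -1.56 points in list 1 alone. This difference did not hold up between lists.

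The excess of regions per Mb over the other autosomes was largest for distal regions inside coding genes. Each count was divided by the whole length of its unit. The length lying within coding genes was not measured, so these ratios do not give densities inside or outside genes. The segment had 1.58 times as many distal H3K4me1 regions inside coding genes per Mb as the other autosomes. For distal ones outside coding genes the ratio was 1.18, and within 1 kb of a coding gene end 1.19. For Pol II the ratios were 1.78, 1.18 and 1.28. The pileup followed another order. For H3K4me1 it was 1.49 and 1.46 times that of the other autosomes near coding gene ends, 1.39 and 1.36 times in distal regions inside genes and 1.18 and 1.09 times in distal regions outside them. For Pol II it was 1.26 and 1.22, 1.19 and 1.15, and 1.14 and 1.19 times. The remaining regions lay within 2 kb of a gene end but not within 1 kb of a coding one. Their ratio per Mb was 1.28 for H3K4me1 and 1.31 for Pol II. Their pileup was 1.23 and 1.30 times that of the other autosomes for H3K4me1, but only 1.06 and 1.04 times for Pol II. The median −log10 q of these Pol II regions was lower than on the other autosomes, at 0.902 and 0.898 times.

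The strongest H3K4me1 regions of the segment, by their mean rank of deposited significance over both lists, were mostly inside long genes. The first, at chr10:126350097-126351786 inside ADAM12, a metalloprotease gene, had a pileup of 306 and 217 over a background of 23.2 and 15.9. The second, at chr10:113086962-113087990 inside TCF7L2, the gene of a transcription factor that acts with beta-catenin, had 327 and 290. The third, at chr10:77592646-77594903 inside KCNMA1, had 331 and 254. The fourth, at chr10:122504163-122505329 inside HTRA1, a secreted serine protease gene, had 257 and 195. The fifth, at chr10:93946738-93948067, had 274 and 209 and lay 36.9 kb from SLC35G1, the nearest coding gene. All 5 were more than 2 kb from any gene end, and all 5 overlapped a Pol II region.

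The widest H3K4me1 regions were not the strongest ones. The widest covered 3828 bp at chr10:79148399-79152226 inside ZMIZ1, a transcriptional coregulator gene, with a pileup of 369 and 219 but a fold of only 3.29 and 3.27. The second covered 3693 bp at chr10:62815359-62819051 and lay over EGR2, an early response transcription factor gene. It alone of the 5 widest was within 2 kb of a gene end. The others lay inside CTBP2, PPP2R2D and CPEB3 and covered from 3460 to 3628 bp. All 5 overlapped a Pol II region.

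Among the strongest Pol II regions, that at chr10:63553155-63555029 inside REEP3 had a pileup of 154 and 203 over a background of 11.2 and 18.5. That at chr10:93746728-93747470, 10.5 kb from LGI1 and 982 bp from the end of a long noncoding RNA gene, had 127 and 127 and a fold of 21.8 and 14.8. That at chr10:73965791-73966673 lay 31.4 kb from VCL, the gene of the focal adhesion protein vinculin, with a pileup of 113 and 151. That at chr10:63268830-63269407 inside JMJD1C, a gene of the jumonji family, had 179 and 263. The first in rank, inside MYOF, the gene of the membrane repair protein myoferlin, had 208 and 313. Of these 5 regions, 4 were more than 2 kb from any gene end, and all 5 overlapped an H3K4me1 region.

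KCNMA1 held the most regions of any coding gene of the segment, 92 of H3K4me1 and 27 of Pol II over 768 kb. None of them gave the gene an end with peaks of both lists. ABLIM1, the gene of an actin-binding protein, held 51 and 17 over 370 kb, with H3K4me1 but not Pol II at an end. LRMDA held 48 and 8 over 1129 kb, and PLCE1 47 and 12 over 339 kb. ADAM12 held 37 and 14 over 376 kb, JMJD1C 36 and 21 over 355 kb, and ZMIZ1 32 and 16 over 248 kb. MYOF held 17 and 16 over 176 kb. Long genes have more room for regions, so these are counts and not densities.

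Coding genes of the segment bore peaks at their ends more often than those elsewhere. Both H3K4me1 lists had a peak that lay within 1 kb of an end in 352 of 486 genes, 72.4% (95% Wilson interval 68.3 to 76.2), where 64.7% of the coding genes of all autosomes were so marked. The share was 62.1% on lower chromosome 10 and 64.6% on the other autosomes, whose highest was 69.0%. Peaks of both Pol II lists did so in 232 of 486 genes, 47.7% (43.3 to 52.2), where 40.1% of all autosomal coding genes had them. The share was 33.5% on lower chromosome 10 and 40.0% on the other autosomes, whose highest was 47.3%. Both shares were the highest of the 23 units, and list 1 and list 2 alone each gave a positive difference from the other autosomes.

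Genes were also sorted by which target they had at an end. Of the 486 genes, 224 had both targets at an end, 128 had H3K4me1 alone, 8 had Pol II alone and 126 had neither. H3K4me1 alone made up 26.3% of the genes of the segment and 26.8% on the other autosomes, and Pol II alone 1.65% and 2.19%, so these classes were near their general shares. Neither target was found in 25.9% of the genes of the segment, 36.7% on lower chromosome 10 and 33.2% on the other autosomes. Since the gene table gives no strand, an end can be a start or a finish of the gene. With the start sites of the promoter table alone, the differences from the other autosomes were 6.18 points for H3K4me1 and 4.55 points for Pol II, against 7.86 and 7.77 with both ends.

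The gene with the highest Pol II rank at an end was SCD, and its peaks lay away from its start. SCD encodes stearoyl-CoA desaturase, which makes monounsaturated fatty acids, and runs on the plus strand from 100347233 to 100364826. Its Pol II peaks, with a pileup of 120 and 121, lay at its downstream end, from 100364551 to 100365219 in list 1. H3K4me1 peaks with a pileup of 173 and 145 lay there too. The 300-base window around its start was overlapped by a peak of H3K4me1 list 1 and by none of the other 3 lists.

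The next in rank had their Pol II summits within 1 kb of a start. BBIP1, a gene of the ciliary BBSome complex, and SHOC2, the gene of a scaffold that promotes RAS and RAF signalling, start next to each other on opposite strands and share their peaks, with a Pol II pileup of 99 and 118. OGA had 88 and 92. DDX50 had 60 and 68 over a background of only 3.56 and 6.08, and so the highest fold of these genes, 13.4 and 9.75. H3K4me1 peaks of both lists were present at the same ends, with a pileup from 67 to 92 at OGA, DDX50 and the shared start.

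Genes were then grouped by role, in 10 groups with 174 genes of the 486 in all. The group counts below stand beside 72.4% with H3K4me1 and 47.7% with Pol II at an end among all coding genes of the segment. Over all autosomal coding genes the shares were 64.7% and 40.1%. Differences between groups and these shares were not tested. Genes of RNA handling and the ribosome had the highest share with Pol II at an end of the 10 groups, 12 of 13, and H3K4me1 in 12 of 13, the same share of 92.3% as in metabolism and mitochondria. Besides DDX50 they include NOLC1, which encodes a nucleolar phosphoprotein, with a Pol II pileup of 70 and 91, and EXOSC1, a subunit of the RNA exosome, with 50 and 67. The EXOSC1 summit lay 37 bp from its own end and 132 bp from an end of ZDHHC16. No member of this group lacked Pol II in both lists.

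In the group of metabolism and mitochondria, 19 of 26 genes had Pol II and 24 of 26 had H3K4me1. COX15, which takes part in heme A synthesis for cytochrome oxidase, had a Pol II pileup of 64 and 70. PANK1, a pantothenate kinase of coenzyme A synthesis, had 48 and 39. HK1, the gene of hexokinase 1, had no Pol II peak in either list within 1 kb of an end, although 7 Pol II and 15 H3K4me1 regions lay inside it.

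Among cell cycle and chromosome maintenance genes 12 of 18 had Pol II and 16 of 18 had H3K4me1. SMC3, a core subunit of cohesin, had a Pol II pileup of 63 and 79. CCAR1, a regulator of cell division and apoptosis, had 25 and 46, and BUB3, of the spindle checkpoint, had 51 and 86. MKI67, the gene of the proliferation marker Ki-67, had H3K4me1 at an end with a pileup of 55 and 46 but no Pol II peak within 1 kb. MGMT had no region of either target inside it or within 50 kb.

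Signalling genes had Pol II in 14 of 25, 56.0%, and H3K4me1 in 20 of 25, 80.0%. Among all coding genes of the segment it was 47.7% and 72.4%. DUSP5, a phosphatase that acts on ERK, had an H3K4me1 pileup of 243 and 223 and a Pol II pileup of 57 and 95 near one end. These peaks lay beyond its upper end, at 110511533, and the Pol II summit was 1374 bp from it. The gene table does not say whether this end is the start. SUFU, an inhibitor of hedgehog signalling, had a Pol II pileup of 56 and 69. The SUFU summit lay 608 bp from its own end and 501 bp from an end of ACTR1A. ADRB1, the beta-1 adrenergic receptor, had H3K4me1 at an end, with 42 and 33, but no Pol II. BLNK, a B-cell adaptor, had no region of either target within 50 kb.

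Among genes of adhesion, the cytoskeleton and the matrix, H3K4me1 lay at an end in 19 of 23, 82.6%, and Pol II in 9 of 23. The Pol II share, 39.1%, was near that of all autosomal coding genes, 40.1%. VCL had an H3K4me1 pileup of 153 and 140 and held 16 H3K4me1 and 11 Pol II regions inside it. Its Pol II pileup was 90 in list 1, at 73997854 to 73998191, and 176 in list 2, at 73998956 to 73999976. These are separate peaks. P4HA1, a subunit of collagen prolyl hydroxylase, had a Pol II pileup of 40 and 67. ADAMTS14, a procollagen protease, had an H3K4me1 pileup of 191 and 148 and a Pol II pileup of 32 and 40. ADD3, which encodes an adducin of the membrane skeleton, had no peak at an end but 14 H3K4me1 and 5 Pol II regions inside it.

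Transcription factor genes had H3K4me1 in 16 of 24, 66.7%, near the 64.7% of all autosomal coding genes. They had Pol II in 4 of 24, 16.7%, against 40.1%. TCF7L2 had a Pol II pileup of 31 and 28 at an end, and 29 H3K4me1 and 11 Pol II regions inside it. ARID5B, of the ARID family of DNA-binding proteins, had 23 H3K4me1 and 14 Pol II regions inside it and none at an end. EBF3 had none of either target within 50 kb.

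In the IFIT family 4 of 5 genes had both targets at an end. IFIT3 had a Pol II pileup of 41 and 49, IFIT1 24 and 21, IFIT2 14 and 24, and IFIT5 14 and 20. The H3K4me1 pileups were 105 and 95, 66 and 68, 69 and 65, and 50 and 37 in the same order. IFIT1B had neither target at an end. These genes are induced by interferon and viral RNA, and whether the cells were stimulated is not stated.

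In the groups tied to other tissues, Pol II lay at an end in 0 of 19 genes of liver, pancreas, lung and lipases, with H3K4me1 in 6 of 19. CYP26A1, which breaks down retinoic acid, had H3K4me1 with a pileup of 101 and 42 but no Pol II. Neuronal genes had Pol II in 3 of 14 and H3K4me1 in 8 of 14. The strongest of them were CPEB3, which encodes a regulator of translation, with a Pol II pileup of 41 and 52, and SLIT1, of axon guidance, with 11 and 16. The SLIT1 peaks lay near its lower end, at 96998038, in a gene of 188 kb. The gene table does not say whether this end is the start. The CPEB3 values come from peaks of list 1 and list 2 that do not overlap. The CPEB3 summit in list 1 lay 1503 bp from its own end and 1569 bp from an end of MARCHF5. Eye genes had Pol II in 2 of 12 and H3K4me1 in 3 of 12. They were ATOH7, a factor of retinal ganglion cell formation, with a Pol II pileup of 12 and 13, and PITX3, a lens factor, with 15 and 17. The PITX3 peaks lay near its lower end, at 102230189, which may be its start or its finish. The PITX3 summit also lay 95 bp from an end of GBF1. ATOH7 and PITX3 are in the transcription factor group as well.

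**Figure D5:**
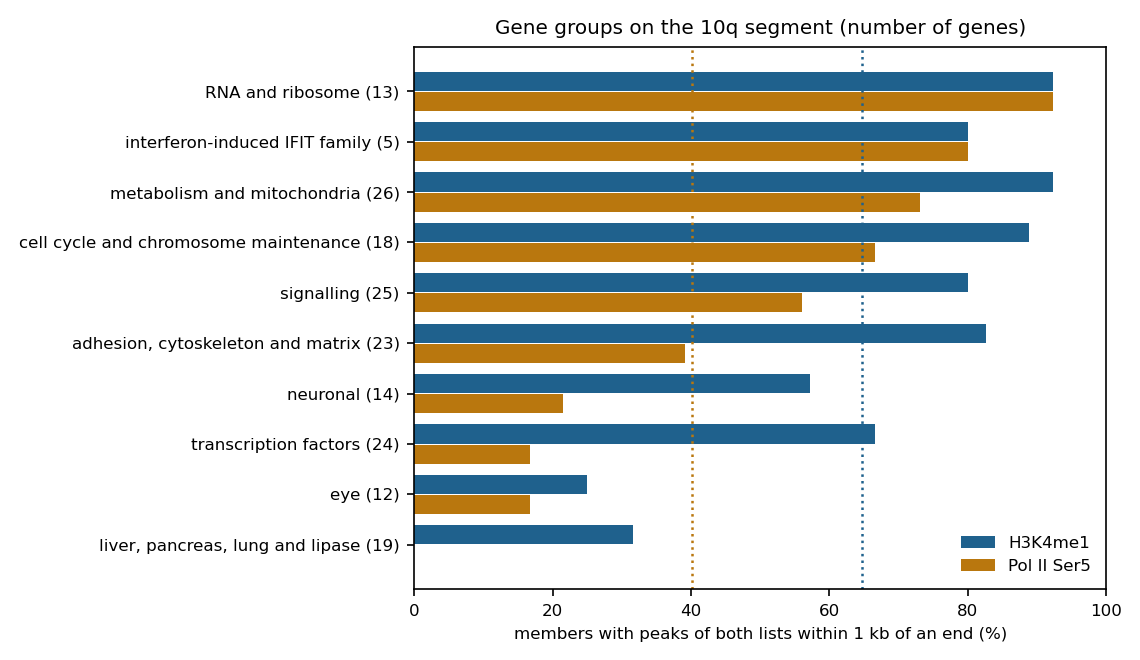
Share of genes of each group on the 10q segment with an end that has a peak of each list no more than 1 kb away (x axis, %), for H3K4me1 (blue) and Pol II (orange). Dotted lines mark the shares over all autosomal coding genes, 64.7% and 40.1%, and the numbers in parentheses count the genes. RNA and ribosome genes have Pol II in 12 of 13, and genes of liver, pancreas, lung and lipases in 0 of 19.

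The cell label was compared with marker genes on any autosome. Of 10 markers of retinal pigment epithelium 7 had H3K4me1 and 3 had Pol II at an end. The 3 were the keratin genes KRT8 and KRT18, which share a peak, and PMEL, of the pigment granule. The PMEL summit lay 190 bp from its own end and 69 bp from an end of CDK2, and the strongest peak of list 2 lay at the other end of PMEL. MITF, a pigment cell factor, and RLBP1, of the visual cycle, had H3K4me1 without Pol II. Of 7 autosomal markers of other cell types 1 had Pol II, the photoreceptor factor NRL, whose Pol II summit also lay 104 bp from an end of DCAF11. The shares of pigment epithelium markers lie near those of all autosomal coding genes, 64.7% for H3K4me1 and 40.1% for Pol II, and so do not set these markers apart.

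Promoter motifs were counted in the 300-base windows of the RefSeq table, 250 bases before to 50 after a start, on both strands. The table held 617 windows of coding genes on the segment, for 430 of the 486 genes. The GC box was found in 53.2% of them and in 56.6% of the 21156 coding windows of the whole table. In windows of genes with Pol II at an end the share was 60.1%, and in the other windows of the segment 47.3%. The ETS motif was in 26.9% of windows of genes with Pol II and in 9.58% of the others, against 21.3% in the whole table. The TATA box went the other way, with 4.95% and 12.9%, against 9.51%. The ISRE core was in 3.53% and 1.80% of windows, that is in 10 of 283 and 6 of 334. Several windows can belong to 1 gene, and a match is a stretch of letters and not a bound site.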

How the data were processed

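The 4 deposited peak lists hold, per the file headers' layout of 10 columns without names, the authors' fold (a ratio), −log10 p and −log10 q of each peak and its summit offset (an other value). Libraries that differ in T number were merged by the authors. BWA, SICER and deepTools and the build hg38 are named in the submitters' processing notes without roles. The peak caller, its threshold and any control are not stated there.

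Read totals were not used here. For every autosomal peak, a whole-number pileup k and a background b were sought that give fold (k + 1) / (b + 1) and the Poisson probability of more than k. All peaks of all lists were matched within 0.001 in −log10 p, where 1 more in k moves it by 0.271 to 0.335 in the median. This formula was inferred from the values. For H3K4me1 the lowest background was 2.77 in list 1 and 2.26 in list 2, and for Pol II 0.520 in list 1 and 1.01 in list 2, so lists differ in depth and pileups were compared only within a list.

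Overlap meant 1 bp or more. Genes came from a RefSeq table (GRCh38.p14) without strand, with 19126 autosomal coding genes, so both ends were used in place of start sites. Named were the 5 genes with the highest Pol II rank at an end, the 5 strongest regions per target, the 5 widest H3K4me1 regions, the 3 fullest bins, the longest gaps, and from each gene group up to 3 with the strongest Pol II and up to 2 without. Genes with most regions were chosen after their values were seen. The members and gene groups were chosen with earlier results of these data known. Each comparison was repeated with each list alone, stronger peaks and a boundary at 65 Mb, and, where they apply, other denominators, windows and overlaps. The recovery and the density ratio were tested on simulated data. The simulated fold and −log10 p were made with the same formula, so this checked the code and not the inferred formula. The scripts used matplotlib 3.10.9, scipy 1.17.1, pandas 2.3.3, numpy 2.4.6 and Python 3.11.15. Intervals are 95% Wilson intervals.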

Additional observations from a re-analysis of the deposited data

Results flagged for a closer look

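Peaks outside the autosomes entered none of the comparisons. Chromosome X carried 2979 H3K4me1 peaks by list 1 and 2915 by list 2, with 937 and 971 for Pol II. On unplaced, unlocalised, mitochondrial or other sequences, H3K4me1 had 246 and 255 peaks, and Pol II had 166 and 240. No control list was used here against which to set these numbers.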

How the results depend on the processing

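Of 128 repeats of the 17 comparisons under 13 alternatives, 124 kept their direction and 4 reversed. The reversed ones concern small differences. H3K4me1 regions per coding gene, segment over lower chromosome 10, went from 0.929 to 1.38 with all annotated genes as the denominator. Pol II regions per coding gene in the same contrast went from 1.06 to 0.899 with peaks above the median fold of their list. The share of Pol II regions on H3K4me1, segment minus other autosomes, went from 1.46 points to -1.56 and -0.266 points in single lists. The causes were not tested. No p-value here can pass a threshold with 2 lists, so only directions and sizes were compared.

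The ratio of H3K4me1 regions per Mb to the other autosomes ran from 1.27 to 1.49 over all its alternatives. That of Pol II ran from 1.38 to 1.54. The median background ratio ran from 1.38 to 1.49 for H3K4me1 and from 1.28 to 1.38 for Pol II. The median pileup ratio ran from 1.23 to 1.38 and from 1.13 to 1.26. The median fold ratio ran from 0.932 to 0.993 and from 0.951 to 0.987. The difference in the share of coding genes with H3K4me1 at an end ran from 4.17 to 13.9 points, and that of Pol II from 4.55 to 10.8 points. The widest values for H3K4me1 came with peaks above the median fold and above the median −log10 q.

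Alternatives chosen after seeing the data were the median fold, start sites alone, and a scaling of the segment. In the last, pileup and background of each segment peak were set to 2 of 3 parts, and the peak was kept if its −log10 p still reached the lowest of its list. This kept 96.5% of H3K4me1 and 95.4% of Pol II regions of the segment, and the ratios per Mb to the other autosomes became 1.31 and 1.40. Peaks were not called anew and no sampling noise was added. What an additional copy does to the number of peaks was therefore not tested. The comparisons of pileup and background were added too. No paired analysis was possible because the 2 targets were never compared with each other in a test, and within a target the 2 lists are the only replicates.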
